A study of Mus musculus with 8 samples.

Results

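T and natural killer cell genes were followed in RNA of lung mesenchyme, from which leukocytes had been sorted away. The group comprises 10 genes, found by symbol among the 31607 genes of the authors' deposited table: the T cell receptor subunits Cd3d, Cd3e, Cd3g and Trbc2, the coreceptors Cd4 and Cd8a, the kinase Lck, the cytokine receptor Il7r, and the granule genes Nkg7 and Gzma. Every symbol occurred, and low-count genes were kept. The HhipCKO mice carried Hhipflox/flox alleles with creER drivers, among them Myh11creER, and the Control mice were Hhipflox/flox. All were adults and all had received tamoxifen, which activates the creER recombinases. Hhip codes for a hedgehog-binding protein of the cell surface. Each group has 4 bulk RNA-seq libraries, and no label says which come from separate mice, so p-values measure the spread between libraries, which may be technical.

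The Myh11 promoter is active in smooth muscle. Controls lacked the drivers, so loss of Hhip and activation of the recombinases cannot be told apart. Live cells were sorted as negative for CD45, which marks leukocytes, for CD31 of endothelium and for Epcam of epithelium. The extraction protocol speaks of cultured cells, and the labels do not say whether a culture step followed the sort.

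T cells recognise antigen through a receptor whose variable chains signal by way of the CD3 proteins. CD4 and CD8 bind the presenting molecule and bring Lck, a Src-family kinase, to the complex. The interleukin-7 receptor sustains resting T cells and innate lymphoid cells, while natural killer cells and cytotoxic T cells kill with granule enzymes. The adult lung holds resident T, natural killer and innate lymphoid cells, some of them next to fibroblasts around airways and vessels.

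The 3 CD3 genes lie side by side on chromosome 9. Their promoter windows are shown because the results on this complex turn on Cd3e, whose level stood apart from those of Cd3d and Cd3g. Each window runs from 250 bases before to 50 bases after the gene start (RefSeq, GRCm38.p6), 5′ to 3′ on the gene's strand. Capitals mark matches on either strand to AGGAAG, the core of many ETS sites, and to CACCTG, an E-box.
Cd3d, chr9:44981536-44981835, plus strand: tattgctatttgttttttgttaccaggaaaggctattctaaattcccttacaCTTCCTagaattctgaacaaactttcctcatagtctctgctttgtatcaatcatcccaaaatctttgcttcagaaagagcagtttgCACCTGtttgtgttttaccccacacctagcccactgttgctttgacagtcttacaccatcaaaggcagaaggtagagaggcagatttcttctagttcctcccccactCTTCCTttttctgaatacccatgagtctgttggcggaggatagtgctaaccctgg
Cd3e, chr9:45009562-45009861, minus strand: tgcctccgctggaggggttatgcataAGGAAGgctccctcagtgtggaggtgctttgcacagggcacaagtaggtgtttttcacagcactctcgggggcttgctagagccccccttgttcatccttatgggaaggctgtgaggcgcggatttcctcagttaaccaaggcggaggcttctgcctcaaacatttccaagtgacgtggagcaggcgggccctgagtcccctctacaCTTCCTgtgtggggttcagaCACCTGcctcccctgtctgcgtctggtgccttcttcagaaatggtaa
Cd3g, chr9:44980382-44980681, minus strand: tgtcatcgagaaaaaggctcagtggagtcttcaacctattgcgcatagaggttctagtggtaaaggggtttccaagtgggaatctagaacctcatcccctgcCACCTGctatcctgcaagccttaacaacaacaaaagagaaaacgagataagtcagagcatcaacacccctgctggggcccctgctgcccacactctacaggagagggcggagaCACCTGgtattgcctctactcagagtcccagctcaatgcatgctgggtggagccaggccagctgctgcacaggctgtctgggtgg
The ETS letters occurred 2 times in the Cd3d window, 2 times in the Cd3e window and 0 times in the Cd3g window, and 35.4% of all 32851 windows held them. The E-box letters occurred 1 time each for Cd3d and Cd3e and 2 times for Cd3g, against 20.2% of all windows with a match. RUNX letters, TGTGGT, occurred in 0 of the 3 windows and in 16.8% of all. These matches are letters in a window and carry no measurement of binding.

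The deposited table gives for each gene a mean normalized count over the 8 libraries, meaning read counts divided by a size factor for library depth, with a log2 fold change of HhipCKO over Control and its standard error (SE). Means summed to 128669692 per library. It lists no value per library. For 9 of the 10 genes the whole counts of the 8 libraries were resolved from these deposited numbers, as the single set that met the mean, the fold change, the SE and the dispersion of the authors' model. For Cd4, Lck and Il7r the dispersion was needed to choose among several sets. For Cd3e the counts were too high to resolve. Each library's group came from the sign of the deposited fold change of genes counted in that library alone. The replicate numbers of the labels could not be attached, so the HhipCKO libraries are called A to D and the Control libraries E to H. Size factors were 1.03 to 1.06 for A to D and 0.939 to 1.004 for E to H.

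Hhip, the deleted gene, was lower in the HhipCKO libraries, where the authors' deposited table puts it at -2.62 ± 0.32 (log2 fold change with SE; adjusted p = 9.55e-13). Its counts per library were not resolved. The tissue markers were abundant, with means over the 12 mesenchyme genes between 29803 normalized counts for Tcf21 and 975870 for Col3a1. The genes of the negative sort were detected: in the authors' deposited table Ptprc, which encodes CD45, Pecam1 and Epcam had means of 750.4, 815.9 and 655.1 normalized counts. For Ptprc the authors' deposited table has a fold of 1.46 with 95% limits of 0.686 and 3.09, and an adjusted p of 0.628. Pecam1 and Epcam stood at -0.40 ± 0.25 and 0.59 ± 0.48 (log2, SE) in that table, without passing. In bulk libraries of this kind, fewer cells of a type and less RNA per cell cannot be told apart.

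For none of the 10 genes did the authors' test call a difference between the groups. The authors' deposited table gives an adjusted p for 5 of them, Cd3e, Cd4, Lck, Il7r and Gzma, the lowest being 0.406 for Cd4. Of these 0 passed 0.05, where 6.98% of all 17469 tested genes did, 3.06% upwards and 3.92% downwards. The other 5 had means below 42.1, the lowest mean with an adjusted p, and were not tested after the authors' filter. Without that filter the adjusted p ran from 0.384 to 0.959, 0 of 10 passed, and 3.05% of 31457 genes did. At an unadjusted p under 0.05 the count was also 0 of 10, beside 13.5% of genes. Log2 fold changes had a median of 0.25, beside 0.02 over all tested genes, and 6 were above 0 while 4 were below. Errors were wide: the SE ran from 0.37 for Lck to 1.13 for Cd3d, where the median over tested genes was 0.19. Every 95% interval included both a rise and a fall.

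**Figure D1:**
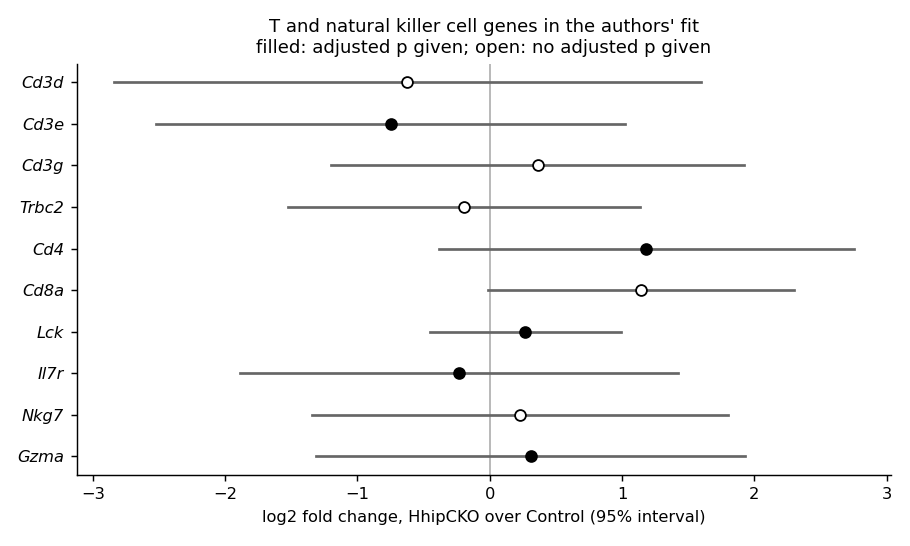
Log2 fold change of each gene, HhipCKO over Control, from the authors' deposited table, with 95% intervals as horizontal lines. Filled points have an adjusted p and open points have none. All 10 intervals cross 0, and Lck has the narrowest.

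All but Cd3e were rare messages. Together the other 9 made up 0.000388% of all normalized counts. Per kilobase of annotated exons, the authors' means came to a median of 27.1 normalized counts over the 10 genes, against 43490 over the 12 mesenchyme markers. In order of this per-kilobase level, Cd3e stood at 293.8, then Gzma at 66.8, Trbc2 at 51.0, Lck at 32.5, Nkg7 at 27.4, Cd4 at 26.8, Il7r at 16.7, Cd3d at 12.8, Cd3g at 11.5 and Cd8a at 8.09. Apart from Cd3e, genes next to each other in that order had overlapping ranges over the 8 libraries and did not differ beyond their SDs.

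**Figure D2:**
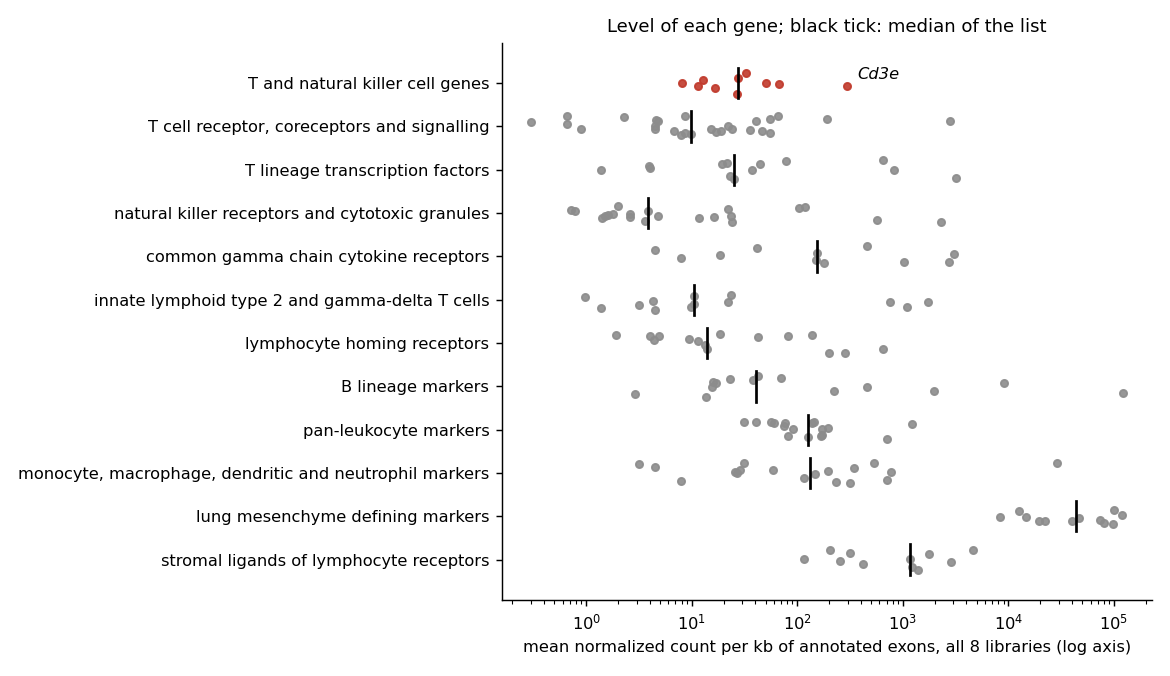
Mean normalized count per kilobase of annotated exons over all 8 libraries, on a log axis, 1 point per gene and a black tick at each list's median. The T and natural killer cell genes, in red, have a median of 27.1 and Cd3e lies at 293.8, while the mesenchyme markers have a median of 43490.

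Cd3e encodes the CD3 epsilon chain, which pairs with CD3 gamma or CD3 delta in the receptor, and its message was the most abundant of the 10. Cd3e (ENSMUSG00000032093, chromosome 9 from 44998740 to 45009627, minus strand, GRCm38) had a mean of 1199 normalized counts in the authors' deposited table. Per kilobase this was 23.0 times the level of Cd3d and 25.5 times that of Cd3g. The authors' model put it at 895 normalized counts in HhipCKO and 1502 in Control libraries. Their ratio, 0.596, had 95% limits of 0.174 and 2.04, and the adjusted p in the authors' deposited table was 0.695. Its dispersion, the squared variation beyond counting error, was 0.786, which is 16.3 times the trend for genes of that mean and a coefficient of variation of 88.6% between libraries of a group. Ptprc, with a mean in the same range, lay at 5.33 times its trend.

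Annotation places other transcripts in the Cd3e gene, named here after their values were seen. Gm48719 is antisense to Cd3e and shares exon sequence with it. Its counts were 60, 50, 23 and 7 in HhipCKO libraries A to D and 21, 87, 20 and 103 in Control libraries E to H, with overlapping groups (exact permutation test, p = 0.457). Gm48720 lies on the Cd3e strand without sharing its exons. Counts were 62, 41, 34 and 26 in HhipCKO libraries A to D and 36, 177, 44 and 110 in Control libraries E to H (exact permutation test, p = 0.171). Both were highest in Control libraries F and H. Whether the counting used strand is not given in the sources used here. It is thus uncertain to which gene reads in the exon sequence shared by Cd3e and Gm48719 belong. Mpzl2, the neighbouring gene for an adhesion protein, had a mean of 1397 normalized counts in the authors' deposited table, where it stood at -0.73 ± 0.43 (log2, SE, adjusted p = 0.319). The part of these transcripts in the Cd3e level was not tested.

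**Figure D3:**
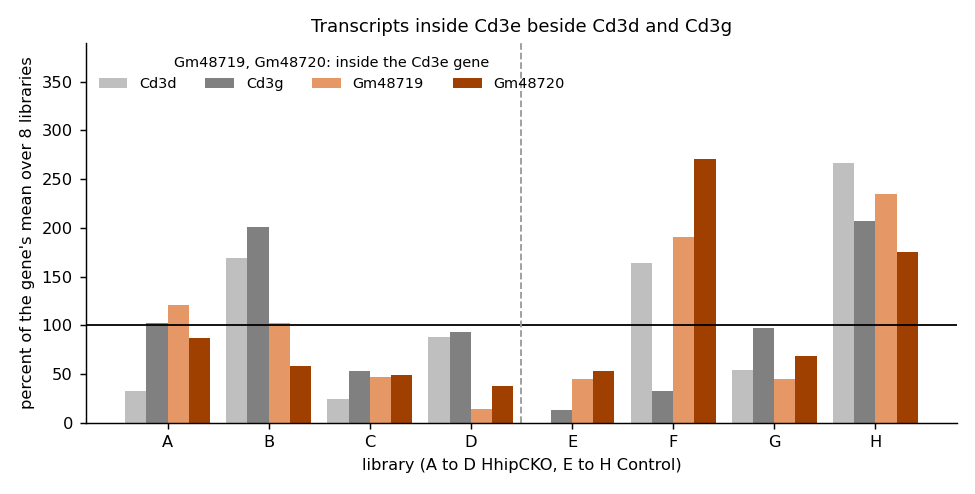
Level of 4 transcripts in each library as a percent of the gene's own mean over the 8 libraries, HhipCKO libraries A to D left of the dashed line and Control libraries E to H right of it. The orange and brown bars, transcripts inside the Cd3e gene, peak in Control libraries F and H, while Cd3d peaks in H and Cd3g in H and B.

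Cd3d encodes the CD3 delta chain (ENSMUSG00000032094, chromosome 9 from 44981786 to 44987339, plus strand). Its counts were 8, 41, 6 and 21 in HhipCKO libraries A to D and 0, 37, 12 and 58 in Control libraries E to H. Library H was highest and E had none, and the Control range enclosed the HhipCKO range. Normalized means were 18.2 ± 15.4 in HhipCKO and 28.1 ± 27.4 in Control libraries (SD, n = 4 each). The log2 fold change in the authors' deposited table was -0.62 ± 1.13 (SE, unadjusted p = 0.583). On the log2(normalized count + 1) scale the mean difference was 0.15, of the opposite sign (exact permutation test, two-sided, p = 0.943).

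Cd3g, the CD3 gamma chain (ENSMUSG00000002033, chromosome 9 from 44969572 to 44980431, minus strand), had 41, 79, 21 and 36 counts in HhipCKO libraries A to D and 5, 12, 35 and 73 in Control libraries E to H. Libraries H and B were highest, 1 from each group, and E was lowest. Means were 42.3 ± 23.5 normalized counts in HhipCKO and 33.0 ± 32.8 in Control libraries (SD, n = 4 each). The log2 fold change was 0.36 ± 0.80 (SE, unadjusted p = 0.649) in the authors' deposited table, and the exact permutation test gave p = 0.429.

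Trbc2 encodes a constant region of the receptor beta chain (ENSMUSG00000076498, chromosome 6 from 41546730 to 41548352, plus strand). It had 45, 62, 16 and 15 counts in HhipCKO libraries A to D and 12, 26, 47 and 59 in Control libraries E to H. Each group held both high and low libraries, with means of 32.9 ± 21.8 in HhipCKO and 37.7 ± 22.8 in Control (normalized counts, SD, n = 4 each; exact permutation test, p = 0.80). Trbc1 is nearly identical in sequence, so the split of reads between them is uncertain. Its own counts were 13, 49, 21 and 45 in HhipCKO libraries A to D and 9, 50, 29 and 30 in Control libraries E to H, with means of 30.8 ± 17.2 in HhipCKO and 30.6 ± 17.3 in Control libraries (normalized counts, SD, n = 4 each).

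**Figure D4:**
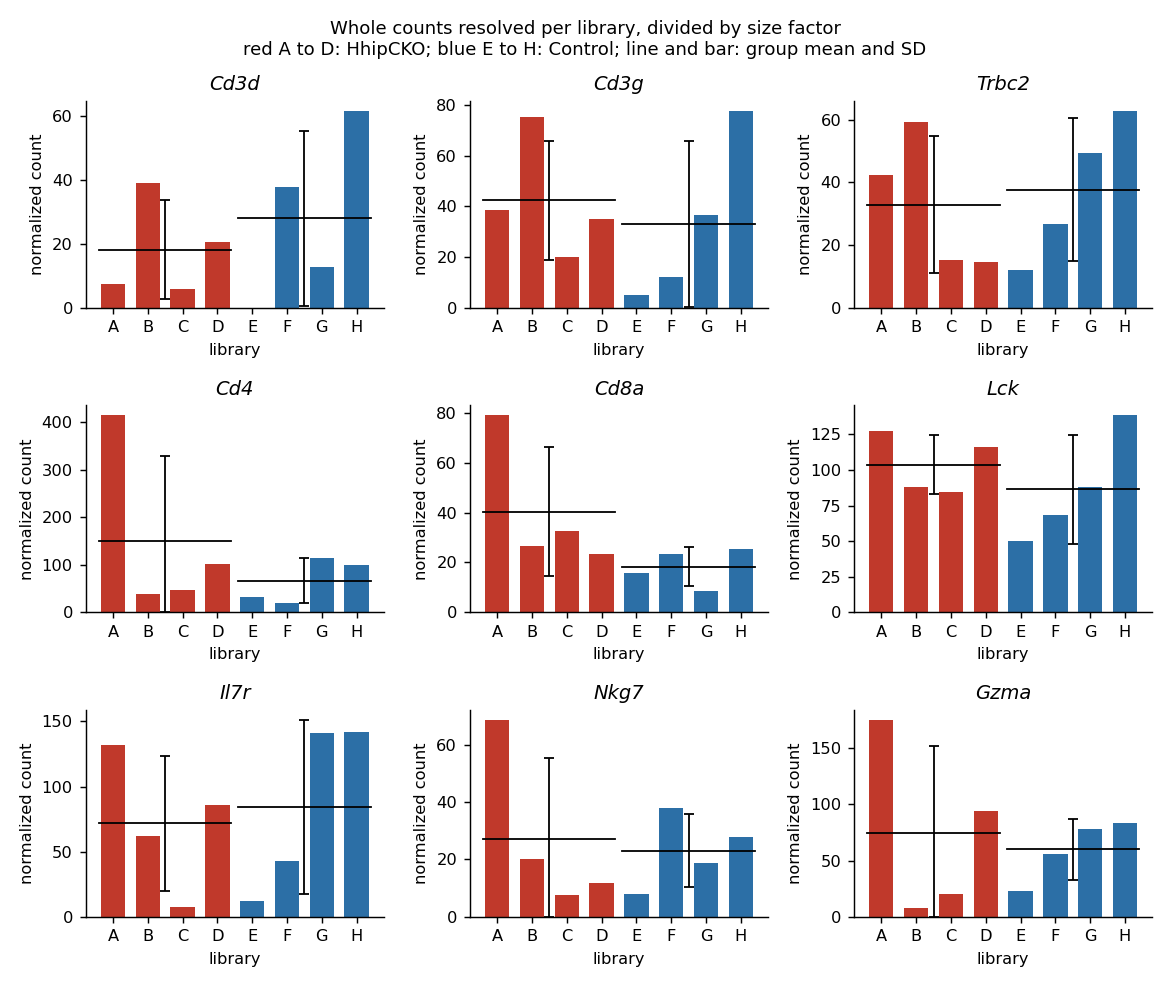
Normalized count of 9 genes in each library, HhipCKO libraries A to D in red and Control libraries E to H in blue, with the group mean as a line and the SD as a bar that stops at 0. The groups overlap for all 9 genes, library A towers over the rest for Cd4 and Cd8a, and library H is highest for Cd3d, Cd3g, Trbc2, Lck and Il7r.

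The coreceptors had the highest fold changes of the group, and HhipCKO library A was the highest library for both. Cd4, the coreceptor of helper T cells, also made by some macrophages and dendritic cells (ENSMUSG00000023274, chromosome 6 from 124864692 to 124888221, minus strand), had 440, 40, 49 and 104 counts in HhipCKO libraries A to D. Control libraries E to H had 32, 20, 108 and 93 counts. Library A stood alone, and the other HhipCKO libraries lay within the Control range. Means were 150.3 ± 178 in HhipCKO and 66.2 ± 46.9 in Control libraries (normalized counts, SD, n = 4 each). In the authors' deposited table the fold was 2.27, with 95% limits of 0.766 and 6.73 (adjusted p = 0.406). The difference of 0.83 on the log2(normalized count + 1) scale was 0.11 without library A (exact permutation test, p = 0.429 with it and p = 0.857 without it).

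Cd8a, the coreceptor of cytotoxic T cells (ENSMUSG00000053977, chromosome 6 from 71373427 to 71379173, plus strand), had 84, 28, 34 and 24 counts in HhipCKO libraries A to D and 16, 23, 8 and 24 in Control libraries E to H. Library A was again highest, B and C lay just above the Control range, and D lay inside it. Means were 40.5 ± 26.1 in HhipCKO and 18.4 ± 7.83 in Control libraries (normalized counts, SD, n = 4 each). The authors' deposited table puts the fold at 2.21, with 95% limits of 0.988 and 4.92. Its unadjusted p of 0.0534 there was the lowest of the 10 genes, and became 0.384 when adjusted without a filter. The exact permutation test gave p = 0.0857 for a log2 difference of 1.03, and p = 0.20 for 0.66 without library A. The second CD8 chain, Cd8b1, had 26, 9, 0 and 40 counts in HhipCKO libraries A to D and 12, 4, 12 and 16 in Control libraries E to H (exact permutation test, p = 0.914).

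Lck had the lowest dispersion of the genes, 0.119. The kinase phosphorylates CD3 chains at the start of signalling (ENSMUSG00000000409, chromosome 4 from 129548344 to 129573641, minus strand), and a microRNA gene, Mir8119, is annotated within it. Counts were 135, 92, 88 and 119 in HhipCKO libraries A to D and 50, 67, 84 and 130 in Control libraries E to H. Libraries A and H were highest and E lowest. Means were 103.8 ± 21.1 in HhipCKO and 86.3 ± 38.2 in Control libraries (normalized counts, SD, n = 4 each). By the authors' deposited table the ratio had 95% limits of 0.731 and 1.98, the narrowest of the 10 genes, with an adjusted p of 0.732. The exact permutation test gave p = 0.371.

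Il7r, the interleukin-7 receptor alpha chain, is used by T cells, innate lymphoid cells and B cell precursors (ENSMUSG00000003882, chromosome 15 from 9505788 to 9530176, minus strand). It had 140, 65, 8 and 88 counts in HhipCKO libraries A to D and 12, 42, 134 and 133 in Control libraries E to H. Libraries G, H and A were high and C and E low, so each group held both. Means were 71.9 ± 51.7 in HhipCKO and 84.4 ± 66.9 in Control libraries (normalized counts, SD, n = 4 each; exact permutation test, p = 0.771). The fold in the authors' deposited table was 0.852, with 95% limits of 0.271 and 2.68 (adjusted p = 0.914).

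Both cytotoxic genes were highest in HhipCKO library A. Gzma, the protease granzyme A (ENSMUSG00000023132, chromosome 13 from 113093825 to 113100981, minus strand), had 186, 8, 21 and 97 counts in HhipCKO libraries A to D and 23, 55, 74 and 78 in Control libraries E to H. The highest and the lowest library were both HhipCKO, and the Control range lay between them. Means were 74.4 ± 77.4 in HhipCKO and 60.01 ± 27.3 in Control libraries (normalized counts, SD, n = 4 each). In the authors' deposited table the fold was 1.24, with 95% limits of 0.403 and 3.82 (adjusted p = 0.875). The log2(normalized count + 1) difference was -0.39, of the opposite sign (exact permutation test, p = 0.771).

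Nkg7, a granule membrane protein of natural killer cells and cytotoxic T cells (ENSMUSG00000004612, chromosome 7 from 43437073 to 43438249, plus strand), had 73, 21, 8 and 12 counts in HhipCKO libraries A to D and 8, 37, 18 and 26 in Control libraries E to H. Library A was highest, and the other HhipCKO libraries fell within or just below the Control range. Means were 27.1 ± 28.3 in HhipCKO and 23.1 ± 12.7 in Control libraries (normalized counts, SD, n = 4 each; exact permutation test, p = 0.971). The authors' deposited table gives a fold of 1.17, with 95% limits of 0.394 and 3.48.

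All 9 genes with counts per library were highest in library A or H. Groups overlapped for all 9, that is 0 of 9 separated, where 4.67% of the 4885 genes resolved with means of 10 to 60 separated. Of the 9 genes, Cd4, Lck, Il7r and Gzma have means above that range. Library A was highest for 4 genes, Cd4, Cd8a, Nkg7 and Gzma, and Control library H for the other 5, Cd3d, Cd3g, Trbc2, Lck and Il7r. Control library E was among the lowest 2 for 8 of the 9. Their summed normalized counts were 1086, 416.3, 240.5 and 502.8 in HhipCKO libraries A to D and 157.4, 326.5, 546.3 and 718.0 in Control libraries E to H. The groups' means were 561.3 ± 366.2 in HhipCKO and 437.0 ± 245.8 in Control libraries (SD, n = 4 each). Over all 4885 resolved genes each library was highest for 9.09 to 15.7%.

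Further lists of natural killer, myeloid and B lineage genes were set beside these libraries. Among natural killer and granule markers resolved with a mean of at least 10, library A was highest for 6 of 9, with a median of 275.8% of the gene's mean, and E stood at 25.5%. Klre1, also among these 9, had 0 counts in library A. Below a mean of 10, Fasl, Ncr1 and Xcl1 also had 0 there, while Klrc1 was counted in library A alone and Gzmk was highest in it. Over 4 resolved myeloid markers library A was highest for 3, and their summed levels ranged from 78.6 to 502.3 normalized counts in HhipCKO and from 27.9 to 162.8 in Control libraries. For 6 resolved B lineage markers the sums ranged from 56.5 to 701.1 in HhipCKO and from 108.6 to 728.1 in Control libraries. The resolved genes were 6 of 14 B lineage and 4 of 18 myeloid markers. Counts were tried only up to a mean of 110 normalized counts. The most abundant markers, such as Igkc at a mean of 64667 and Lyz2 at 37908, are therefore not in these sums. Library C was low for both the resolved B lineage markers and the 9 genes, at 14.1% and 43.4% of the mean. Control library E was low for both as well, at 21.9% and 31.8%. Library H, highest for 5 of the 9 genes, was highest for 0 of the 9 natural killer and granule markers and for 0 of the 6 B lineage markers. It stood at 112.9% of the mean over the natural killer and granule markers, 46.4% over the B lineage markers and 75.0% over the myeloid markers. The part of leukocyte content in the differences between libraries was not tested.

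**Figure D5:**
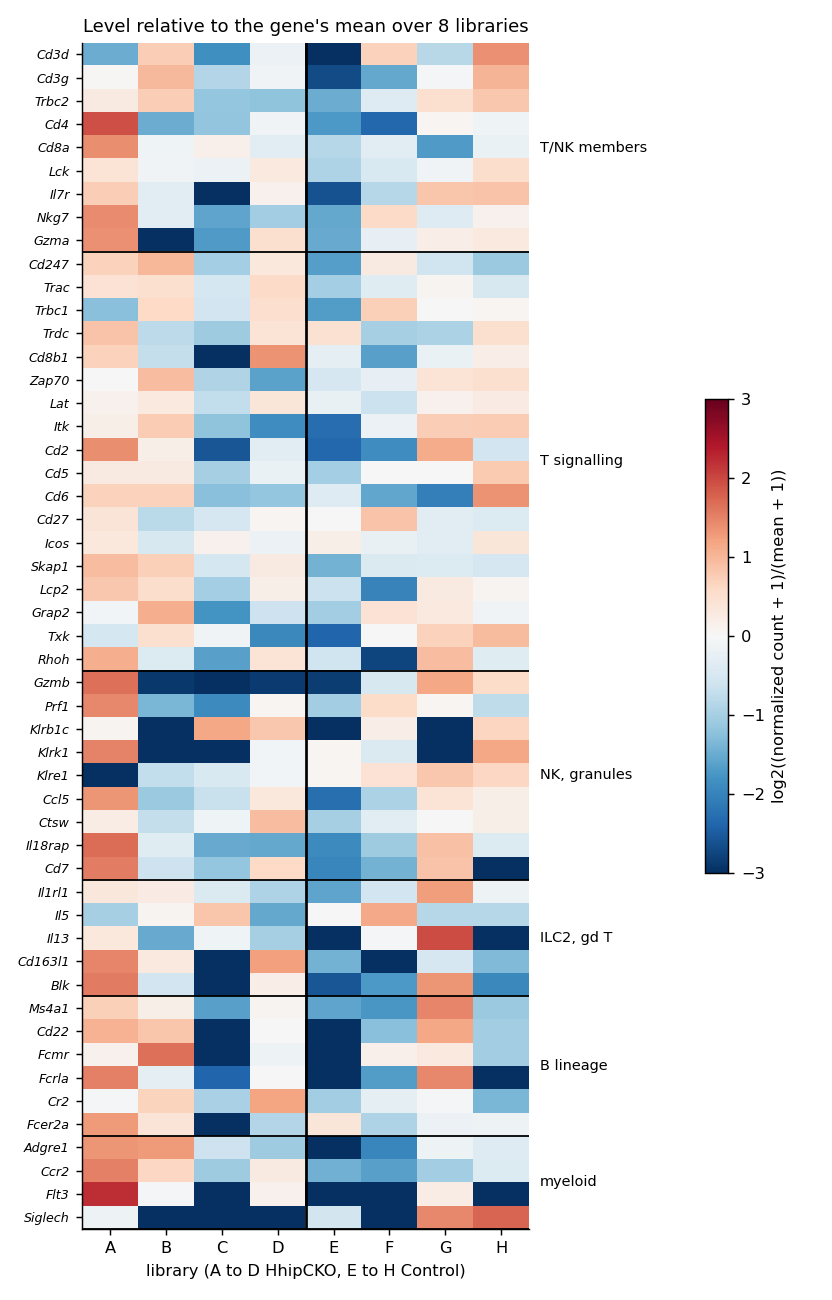
Level of each resolved gene in each library relative to its mean, as log2 of (normalized count + 1) over (mean + 1), HhipCKO libraries A to D left of the black line and Control libraries E to H right of it. Column A is red for Cd4, Cd8a, Nkg7 and Gzma and is the highest column for 6 of 9 natural killer and granule genes, and column E is blue for most of the 9 genes.

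The wider T cell signalling list held 27 further genes, all in the table, of which 12 had an adjusted p and 0 rose or fell, with a median log2 fold change of 0.27. Skap1, an adaptor that links the receptor to integrins, had 69, 59, 24 and 42 counts in HhipCKO libraries A to D and 12, 24, 24 and 22 in Control libraries E to H. Libraries A, B and D lay above the Control range (exact permutation test, p = 0.114). In the authors' deposited table Skap1 stood at 1.12 ± 0.48 (log2, SE), with an unadjusted Wald p of 0.0189 and no adjusted p. That p was the lowest of the list, which held 18 positive and 9 negative fold changes. Trac, the receptor alpha constant gene, had 63, 64, 31 and 67 counts in HhipCKO libraries A to D and 21, 33, 44 and 29 in Control libraries E to H (exact permutation test, p = 0.114). Ubash3a, a negative regulator of receptor signalling, had 6, 4, 4 and 0 counts in HhipCKO libraries A to D and 16, 4, 12 and 12 in Control libraries E to H (exact permutation test, p = 0.0571).

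Of 14 T lineage transcription factors 10 were tested and 0 rose or fell, with a median of -0.20. The lowest adjusted p was 0.259, for Id2, a partner of E proteins that innate lymphoid cells need, at 0.59 ± 0.32 (SE) in the authors' deposited table. Lef1, which T cell precursors share with Wnt-responsive mesenchyme, stood at -0.63 ± 0.35 and Zbtb7b, the factor of the CD4 lineage, at -0.10 ± 0.10 (log2 fold change, SE) in the authors' deposited table.

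In the natural killer and granule list 7 of 22 genes were tested and 0 rose or fell. Its 3 lowest unadjusted p belonged to genes with few counts. Fasl, the death ligand, had 0 counts in each HhipCKO library and 4, 0, 8 and 26 in Control libraries E to H. Ncr1, an activating receptor of natural killer cells, had 0 in each HhipCKO library and 8, 0, 8 and 8 in Control libraries E to H. For both, the exact permutation test gave p = 0.143. With 0 counts in 5 of the 8 libraries this is the lowest value the test could give, so it cannot decide. In the authors' deposited table the unadjusted Wald p was 0.00739 for Fasl and 0.0205 for Ncr1, without an adjusted p. Over resolved genes with means of 10 to 60, 4 counts occurred 1235 times beside 241 for 3 counts. Likewise 8 counts occurred 1675 times beside 422 for 7 counts. How many independent reads such counts of Fasl and Ncr1 stand for was not tested. Klre1, a lectin-like receptor, had 0, 8, 10 and 13 counts in HhipCKO libraries A to D and 14, 18, 23 and 20 in Control libraries E to H, and its groups did not overlap, as for 4.67% of resolved genes with means of 10 to 60 (exact permutation test over 70 arrangements, p = 0.0286, their lowest possible value).

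The list of common gamma chain receptors also holds the signalling genes Jak3, Stat5a and Stat5b and the related receptor Crlf2. Of its 11 genes 10 were tested and 0 were called, with a median of -0.05. Il15ra, which presents interleukin-15 to natural killer cells and is also made by stroma, came closest in the authors' deposited table, at -0.60 ± 0.21 (log2, SE) and an adjusted p of 0.0589. It passed with median-centred fold changes, at 0.0488, and with a trend on transcript length removed, at 0.0437 (adjusted p). Without a filter its adjusted p was 0.0995, and at a mean of at least 10 it was 0.0693. With the Wald statistics divided by their robust SD the adjusted p of Il15ra was 0.825. Against a minimum change of 1.5-fold Il15ra did not pass. Il4ra stood at -0.40 ± 0.15 with an adjusted p of 0.0815 and Il2rb, the beta chain for interleukin-2 and interleukin-15, at -0.75 ± 0.34 with 0.160, in the authors' deposited table.

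Single genes passed in the innate lymphoid, homing receptor and stromal ligand lists, and over all tested genes 3.06% rose and 3.92% fell. In the innate lymphoid and gamma-delta list, 1 of 6 tested genes fell: Sox13, a factor of gamma-delta T cells, with a mean of 3242 normalized counts. The authors' deposited table has it at -0.45 ± 0.12 (log2, SE; adjusted p = 0.00599). Gamma-delta receptor genes of the same list had means of 17.2 for Trdc, 3.93 for Tcrg-C1, 1.27 for Tcrg-C2 and 0.969 for Tcrg-C4 (normalized counts). Which cells the Sox13 reads came from was not tested. Among homing receptors 1 of 8 rose in the authors' deposited table: Cxcr5, which guides B cells and follicular helper T cells, at 0.99 ± 0.28 (log2, SE; adjusted p = 0.0112). Cx3cr1, a receptor of natural killer cells and monocytes, had 96, 148, 16 and 100 counts in HhipCKO libraries A to D and 39, 24, 39 and 48 in Control libraries E to H (exact permutation test, p = 0.314). Of 11 stromal ligands 1 rose in the authors' deposited table: Il7, the ligand of the receptor above, at 0.88 ± 0.22 (log2, SE; adjusted p = 0.00314), beside a fold of 0.852 for Il7r that did not pass. None of the calls for Sox13, Cxcr5 and Il7 passed with the Wald statistics divided by their robust SD, where the adjusted p were 0.547, 0.615 and 0.475, or against a minimum change of 1.5-fold.

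Other leukocyte lists had positive medians with few calls. For pan-leukocyte markers 0 of 17 passed, with 16 positive values and a median of 0.74 beside 0.02 over all tested genes. Itgb2, the integrin beta chain of leukocytes, had the lowest p of them in the authors' deposited table, at 1.30 ± 0.57 (log2, SE; adjusted p = 0.147). Of 12 tested B lineage markers 0 passed, and all 14 in the table had positive values, with a median of 0.66 over those tested. Genes of these lists were measured in the same 8 libraries, so their signs are not independent observations. The share of positive values over all genes was not computed. Among 15 tested myeloid markers 1 rose in the authors' deposited table, the monocyte chemokine receptor Ccr2 at 1.70 ± 0.58 (log2, SE; adjusted p = 0.0499). That call is 1 of 15 beside 6.98% over all tested genes, and it was lost under each of the 6 alternatives, such as without a filter, at an adjusted p of 0.0846. The T and natural killer cell genes had a median of 0.25, and the difference between these lists was not tested.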

How the data were processed

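Lung mesenchyme was profiled by bulk RNA-seq in 4 HhipCKO and 4 Control libraries. A part of the HhipCKO genotype is not reported here. Per the labels' protocols, RNA was taken with QIAGEN RNeasy Mini kits and sequenced at GENEWIZ, and per the submitters' processing notes FastQC, STAR and DESeq were used on GRCm38 (mm10). Versions, counter, annotation and strand setting are not given in the sources used here. Per the file headers, the authors' deposited table holds the mean normalized count signal, the log2 fold change with its SE, the Wald score and p-values before and after adjustment. It has 0 per-sample columns.

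The authors' Wald test at an adjusted p of 0.05 was the main test, with 95% intervals from the SE. Size factors came from the lowest means, where 3762 of 3762 genes under 9 counts had exactly 1 solution in whole counts. Counts per library were then solved from the mean, the fold change and the SE, with the dispersion equation of the authors' model, at tolerances of 1e-09 on the log2 fold change and 0.01 on the log dispersion. Of 4991 genes with means of 10 to 60, 97.9% had exactly 1 solution, and the rest had none. The steps were tested on simulated data. Values per library were compared by two-sided exact permutation tests on log2(normalized count + 1). Counts fell in steps: 37.6% of 37120 counts above 0 were multiples of 4. The source of the steps was not tested. Counts were therefore not taken as independent reads, since that could overstate counting precision, and no counting intervals are given.

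The genes and lists were chosen with earlier results of these data known. Named genes are all 10, Hhip, the genes of the negative sort, those past the threshold in each list and up to 3 with the smallest unadjusted p, though not all of these are printed. Trbc1, Cd8b1, Gm48719, Gm48720 and Mpzl2 were added after values were seen. Of 31607 genes, 31555 matched GENCODE M21. Python 3.11.15, numpy 2.4.6, scipy 1.17.1, pandas 2.3.3, numba 0.67.0 and statsmodels 0.14.6 were used.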

Additional observations from a re-analysis of the deposited data

Results flagged for a closer look

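Among the 9 genes resolved per library, 18 groups of 4 were examined for a library far from the other 3 of its group, and 2 held one. Cd4 stood at 414.6 normalized counts in HhipCKO library A, and Cd8a at 79.2 in the same library, in each case with a gap that takes up most of the group's range. For normally distributed values chance gives about 1 in 20 groups, and the rate for counts such as these was not tested.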

How the results depend on the processing

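No paired analysis was possible because the table has no values per numbered sample and the resolved libraries carry no replicate number. Without a filter and at a mean of at least 10, 0 of the 10 genes were called. The other settings were run on genes with an adjusted p, and 0 of these 5 were called with median-centred fold changes, with Wald statistics divided by their robust SD of 1.53, against a minimum change of 1.5-fold or with the length trend removed. The 2 of these that alter fold changes, centring and the length trend, changed the sign of none of the 5. Over all genes the count of 1219 became 18 with the robust SD, 11 against the 1.5-fold minimum and 538 with the length trend removed, and the 4 listed genes past the threshold became 0 with the robust SD and 0 against the minimum, in the innate lymphoid, homing, myeloid and stromal ligand lists alike. The myeloid list also went to 0 without a filter, at a mean of at least 10, with median-centred fold changes and with the length trend removed, where the last 2 settings gave 1 in the common gamma chain list. On the linear scale the difference turned round for Cd3d (-9.84 normalized counts), Nkg7 (3.94) and Gzma (14.4). Leaving out each library in turn, differences on the log2 scale ran from -1.11 to 0.88 for Cd3d, -1.08 to 0.37 for Gzma, -0.94 to 0.63 for Il7r, -0.68 to 0.33 for Nkg7 and -0.64 to 0.12 for Trbc2, each changing sign, and -0.060 to 0.69 for the sum of the 9 genes, while those of Cd3g, Cd4, Cd8a and Lck stayed positive. Their lowest exact permutation p was 0.0571, for Cd8a without HhipCKO library D, where its groups no longer overlapped, so the count of separated genes ran from 0 to 1. The share of all resolved genes that separate with a library left out was not computed. The 4.67% given above holds for all 8 libraries, so this count has no background to be read against. With a tolerance 10 times wider, 6 of the 9 genes still had a single set of counts, and Cd4, Il7r and Gzma had 17, 3 and 2 sets. Variation between libraries beyond counting error ran from 34.5% for Lck to 108.9% for Cd3d as a coefficient of variation. The part of depth in the width of the intervals was not tested.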
